A study of Saccharomyces cerevisiae with 10 samples.

Results

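The data are 8 libraries of budding yeast, compared as the cultures numbered 3 and 4 against the cultures numbered 1 and 2 in each of 2 prion states (4 against 4 libraries). They were taken from a series of 10 libraries, whose other 2 libraries are the cultures numbered 5. The sets were chosen by the log2(TPM + 1) values of these same libraries, in which they were seen, and are not conditions that the labels give. Differences between them are therefore a description of which transcripts were high and low together, with no test. Within each set, 2 libraries came from [BIG+] cells and 2 from naive cells. Naive cells were wild type in the BY4741 background, a haploid laboratory strain, and the labels give them no prion. [BIG+] cells had the same background and genotype and carried [BIG+], a prion, which is a protein-based heritable state. For each state 5 separate colonies were grown in 5 mL of the rich medium YPD and then in 700 mL of YPD at 30 °C, and harvested at an OD of 1.0. Total RNA was depleted of rRNA with RiboZero. The labels do not say what the replicate numbers share, such as a day, a flask or a time of harvest. The authors deposited TPM, transcript levels scaled for gene length and to a fixed sum in each library, from which read counts cannot be had.

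Fast-growing yeast devotes much of its transcription to making ribosomes: the ribosomal proteins, the RNA polymerases that make rRNA, and a large group of factors that process and assemble pre-ribosomes in the nucleolus. The assembly factors are often called the ribosome biogenesis regulon, and their promoters commonly carry the short elements PAC and RRPE. When nutrients or growth rate change, these genes commonly move opposite to genes of stress, respiration and protein folding, and they move together with genes of division and nutrient uptake. Heat shock genes are controlled by the factor Hsf1, which binds repeats of GAA and TTC, and general stress genes by Msn2 and Msn4, which bind AGGGG.

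Promoter windows of 5 genes of these groups are shown first, as examples that hold the letters searched for in the low and the high group. They are not the most extreme members throughout. RRP8 (difference between the sets -1.585) lay beyond ALB1 (-1.512) and NOP15 (-1.425), and SSA4 (1.309) beyond HSP78 (1.116) and HSP104 (1.035). Each runs from 350 to 101 bases before the start codon (250 bases, 5′ to 3′ on the gene's strand, R64 reference of RefSeq), and can include part of a neighbouring gene. In the first 3, from assembly factors lower in cultures 3 and 4, capitals mark GATGAG (the core of PAC) and AAAATTT (the core of RRPE) on either strand, where overlapping matches run together. DBP2 encodes an RNA helicase (chrXIV:413289-413538, plus strand), ALB1 a shuttling factor of the large pre-ribosome (chrX:189366-189615, plus strand) and NOP15 a nucleolar factor of the large subunit (chrXIV:418589-418838, minus strand).
DBP2: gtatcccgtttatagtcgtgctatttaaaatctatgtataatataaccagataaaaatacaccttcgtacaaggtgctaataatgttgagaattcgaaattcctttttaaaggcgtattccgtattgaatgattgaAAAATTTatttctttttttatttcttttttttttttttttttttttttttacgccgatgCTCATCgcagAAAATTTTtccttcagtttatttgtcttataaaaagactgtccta
ALB1: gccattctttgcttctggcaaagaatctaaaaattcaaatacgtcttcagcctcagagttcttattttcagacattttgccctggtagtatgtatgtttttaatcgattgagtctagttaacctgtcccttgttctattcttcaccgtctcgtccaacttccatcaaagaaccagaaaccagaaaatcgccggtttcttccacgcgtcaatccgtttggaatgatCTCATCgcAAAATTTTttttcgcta
NOP15: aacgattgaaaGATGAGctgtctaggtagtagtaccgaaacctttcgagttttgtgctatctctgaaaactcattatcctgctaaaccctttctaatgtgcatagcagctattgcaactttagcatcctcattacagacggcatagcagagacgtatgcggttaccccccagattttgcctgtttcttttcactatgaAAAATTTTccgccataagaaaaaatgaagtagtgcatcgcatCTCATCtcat
The other pair comes from chaperones higher in cultures 3 and 4, and capitals mark a heat shock element (TTC, any 2 bases, GAA, any 2 bases, TTC; overlapping matches run together) and AGGGG on either strand. HSP78 encodes a mitochondrial disaggregase (chrIV:974344-974593, minus strand) and HSP104 the cytosolic one (chrXII:88273-88522, plus strand).
HSP78: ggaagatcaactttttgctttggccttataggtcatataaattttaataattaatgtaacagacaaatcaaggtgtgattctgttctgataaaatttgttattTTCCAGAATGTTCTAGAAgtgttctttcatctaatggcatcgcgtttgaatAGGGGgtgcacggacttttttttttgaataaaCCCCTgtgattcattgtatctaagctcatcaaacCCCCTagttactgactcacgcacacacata
HSP104: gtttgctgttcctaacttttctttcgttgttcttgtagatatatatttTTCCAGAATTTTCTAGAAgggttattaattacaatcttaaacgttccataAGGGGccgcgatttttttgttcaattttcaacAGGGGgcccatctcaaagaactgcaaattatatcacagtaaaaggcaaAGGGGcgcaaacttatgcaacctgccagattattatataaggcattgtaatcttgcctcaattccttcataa
GATGAG was present in 62.2% of the windows of 143 ribosome assembly factors, against 15.5% of all 5231 tested genes with a window. AAAATTT was present in 85.3%, against 22.7% of all windows, and both together in 57.3%, against 6.10%. RNA polymerase I and III genes held both in 36.6% of 41 windows, while cytosolic ribosomal protein genes held both in 2.99% of 134 and mitochondrial ribosomal protein genes in 6.76% of 74. The heat shock element was present in 35.1% of 37 chaperone windows, against 0.956% of all windows. AGGGG was present in 32.4% of chaperone windows and 80.6% of 62 general stress windows, against 20.3% of all. Over all features lower or higher in both states, as defined below, the shares lay nearer to those of all windows. GATGAG and AAAATTT together were in 9.62% of lower and 3.75% of higher windows, so most lower windows lack the pair. AGGGG was in 26.9% of higher and 17.1% of lower windows, and the heat shock element in 1.65% and 0.435%. CACGTG (bound by Cbf1 and Pho4), TGACTCA (Gcn4), ACGCGT (MBF), TGCACCC (Aft1) and GGTGGC (part of the Rpn4 site), also searched on both strands, were present in 1.65 to 5.41% of windows of the higher and 1.25 to 5.54% of windows of the lower features, against 1.24 to 5.83% of all. Of these, TGACTCA was in 3.15% of higher and 1.79% of lower windows (21 and 33 windows), and in 3.46% and 1.56% with median-of-ratios scaling. GATGAG was in 24.3% of chaperone windows, and both GATGAG and AAAATTT were in 10.8%. The HSP78 window holds both too, left in lower case above. A match describes the letters and does not show that a factor binds there.

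A gene is called separated in both states where, within [BIG+] and within naive cells, both libraries of cultures 3 and 4 lay on the same side of both libraries of cultures 1 and 2. Of 5663 features with a mean of at least 1 TPM, 696 (12.3%) were higher in cultures 3 and 4 in both states and 1954 (34.5%) were lower. Another 84 (1.48%) were separated in opposite directions. The median difference over all features, cultures 3 and 4 minus cultures 1 and 2 on the log2(TPM + 1) scale, was -0.16, at -0.18 in [BIG+] and -0.13 in naive cells. This scale understates differences of low genes. With median-of-ratios scaling, which brings that median to -0.01, 1387 (24.5%) were higher and 1348 (23.8%) lower. The split of higher against lower thus depends on the scaling: 26.3% of separated features were higher as deposited and 50.7% with median-of-ratios. All 696 of the higher and 1339 of the lower features were separated in the same direction under both, and 0 turned. Each difference below is to be read against the median of -0.16.

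Library composition also differed between the sets. The mRNA share of TPM was 42.9 to 46.2% in cultures 3 and 4, against 46.2 to 47.6% in cultures 1 and 2. The share of SCR1, the RNA of the signal recognition particle, was 15.8 to 23.2%, against 13.3 to 20.2%, and that of mitochondrial features was 0.165 to 0.240%, against 0.121 to 0.165%. Genes with the shortest coding sequences, at most 726 bases, had a median difference of -0.22, and the other 3 groups of equal size by length had -0.12 to -0.14. The part of these shares and of length in the results was not tested. BY4741 is of mating type a, and the a-cell genes STE2, BAR1, AGA2 and STE6 were at 232 to 312, 84.1 to 118, 199.9 to 412 and 15.1 to 24.2 TPM, and each alpha-cell gene was at 2.27 TPM or less. MFA1 and MFA2, the a-factor genes, were listed at 0, as were LEU2, MET17 and URA3, which are auxotrophic loci of BY4741. HIS3, another such locus, was at 18.4 to 34.7 TPM.

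Ribosome assembly factors were lower almost throughout. Of 143 tested members, 133 were lower in cultures 3 and 4 in both states and 0 were higher, where 34.5% of all features were lower. Their median difference was -0.86, at -0.98 in [BIG+] and -0.75 in naive cells. With median-of-ratios scaling 131 were lower, 1 was higher and the median was -0.71, where 23.8% of all features were lower.

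DBP2 (YNL112W, chrXIV:413639-416281) was at 53.1 and 43.8 TPM in [BIG+] cultures 3 and 4, against 173 and 157 TPM in [BIG+] cultures 1 and 2. In naive cells it was at 48.5 and 56.3 TPM in cultures 3 and 4, against 149.9 and 139 TPM in cultures 1 and 2. All 4 libraries of cultures 3 and 4 lay below all 4 of cultures 1 and 2, and the difference was -1.60 ± 0.11 (limma SE, 4 against 4 libraries). UTP23, a component of the small subunit processome (YOR004W, chrXV:333592-334356), showed the same spread at lower levels. It was at 3.48, 4.21, 3.02 and 3.89 TPM in cultures 3 and 4 ([BIG+] 3 and 4, naive 3 and 4), against 13.1, 11.6, 12.4 and 12.9 TPM in cultures 1 and 2 ([BIG+] 1 and 2, naive 1 and 2). The groups did not overlap, and the difference was -1.54 ± 0.11. Where 4 values of a set are given below, the first pair is from [BIG+] and the second from naive libraries.

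ALB1 was at 22.5, 17.2, 19.8 and 22.6 TPM in cultures 3 and 4, against 58.2, 60.4, 62.7 and 59.1 TPM in cultures 1 and 2. NOP15 was at 4.85, 4.66, 5.15 and 6.93 TPM, against 18.1, 18.0, 13.8 and 14.6 TPM. NSR1, a nucleolin-like protein, was at 38.8, 36.2, 43.8 and 52.5 TPM, against 89.6, 94.3, 76.6 and 67.2 TPM. The NSR1 difference was -1.27 in [BIG+] cells and -0.57 in naive cells, and the test of that contrast is given with the interaction of set and state.

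The 10 assembly factors that were not lower in both states were UTP22, RRP5, RRP7, TIF6, DBP6, HAS1, RIO2, FCF1, SQT1 and ESF1. TIF6, which keeps the large subunit from joining the small one (chrXVI:592332-593069), stood out among the members. It was at 212, 206, 211 and 211 TPM in cultures 3 and 4, against 204, 226, 161 and 187 TPM in cultures 1 and 2, groups that overlap in [BIG+] cells. It was the 1 member higher with median-of-ratios scaling.

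**Figure D1:**
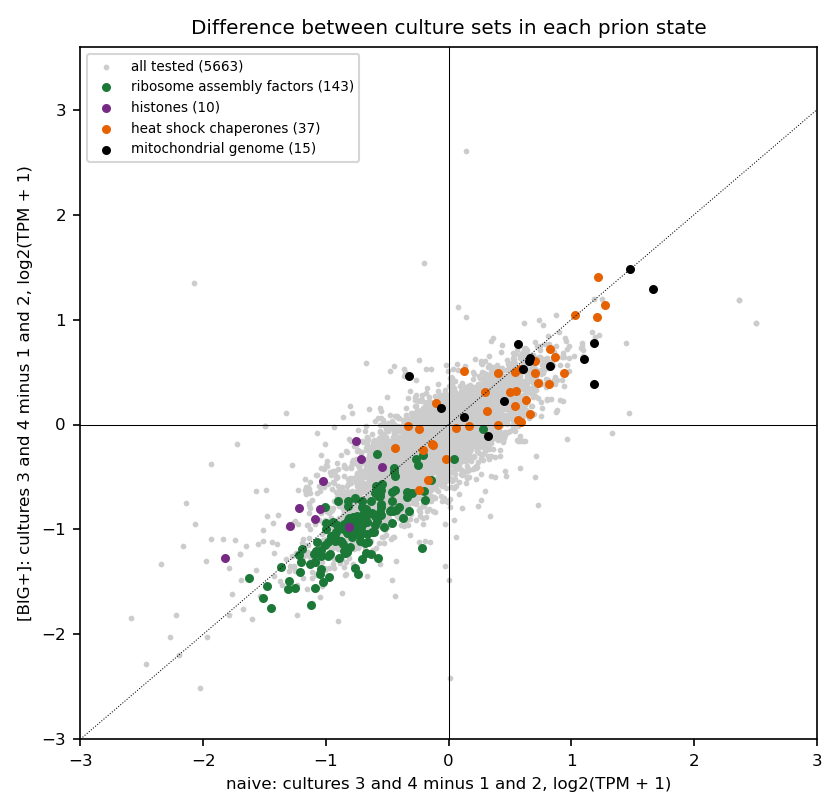
Difference of cultures 3 and 4 minus cultures 1 and 2 on the log2(TPM + 1) scale, with [BIG+] cells on the vertical axis and naive cells on the horizontal axis. Each point is 1 of 5663 features, and the dotted line marks equal differences; the assembly factors and histones lie in the lower left, apart from the assembly factors TIF6 and SQT1, which are above 0 in naive cells, and most chaperones lie in the upper right.

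Polymerases that make rRNA and tRNA were lower in part. Of 41 genes of RNA polymerase I and III and their factors, 22 were lower in both states and 0 were higher, with a median of -0.31 (17 lower and 2 higher with median-of-ratios scaling, median -0.15). The share lower over all features was 34.5%, and 23.8% with that scaling. RPA43, a polymerase I subunit that contacts the initiation factor Rrn3, was at 8.01, 6.29, 6.76 and 8.05 TPM in cultures 3 and 4, against 20.2, 20.6, 20.7 and 18.6 TPM in cultures 1 and 2 (difference -1.35 ± 0.11). RPA190, the largest polymerase I subunit, was at 40.2, 34.0, 39.5 and 41.8 TPM, against 41.2, 40.6, 52.9 and 36.3 TPM, and overlapped in naive cells. Of these subunits of 1 enzyme, RPA43 was separated in both states and RPA190 was not. Among the rDNA features, the spacer ITS1-1 was lower in both states, at 40.1, 39.6, 68.1 and 34.4 TPM against 97.0, 93.9, 182 and 139.5 TPM. The leader ETS1 and the whole precursor RDN37 were not separated in both states. The rDNA copies are near identical and rRNA was depleted, so these levels are uncertain.

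Cytosolic ribosomal proteins were split by paralog, mainly where the levels of a pair were far apart. Of 134 tested genes, 74 (55.2%) were lower in both states and 9 (6.72%) were higher, where 34.5% and 12.3% of all features were. The median was -0.35, at -0.18 in [BIG+] and -0.52 in naive cells. With median-of-ratios scaling 36 were lower and 13 higher, where 23.8% and 24.5% of all features were. The median was then -0.16, so the number lower depended on the scaling. Most ribosomal proteins are encoded by a pair of paralogs. In 44 of 58 pairs the paralog with the lower mean level had the more negative difference, and this held within each state in 44 pairs. Of 15 pairs whose levels were at least 4-fold apart, it was the weaker paralog in 14, with a median difference of -0.90 for the weaker and -0.17 for the stronger member. In the other 43 pairs it was the weaker paralog in 30, and the medians were closer, at -0.36 and -0.27. Low and high genes react differently to the pseudocount and paralogs share sequence, so their levels are uncertain where reads fit both.

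RPL7B, the weaker gene of its pair for a large subunit protein, was at 4.37, 7.82, 3.91 and 7.33 TPM in cultures 3 and 4, against 18.9, 10.8, 28.7 and 26.6 TPM in cultures 1 and 2 (difference -1.66 ± 0.24). Its partner RPL7A was higher, at 893, 876, 769.6 and 926 TPM against 674, 722, 626 and 737 TPM (difference 0.33). RPS9A was at 10.9, 13.3, 9.81 and 16.1 TPM, against 52.1, 19.3, 65.5 and 70.7 TPM, with [BIG+] culture 2 nearest to cultures 3 and 4. Its partner RPS9B was at 1099, 1104, 808 and 989 TPM, against 1163, 1018, 1053 and 1260 TPM, and overlapped in [BIG+] cells. RPL18B was at 35.5, 42.3, 37.3 and 52.0 TPM, against 135.9, 76.0, 164 and 146 TPM. The exception among the 15 pairs was RPL15B, at -0.64, beside RPL15A at -0.69. Ribosomal protein genes with an intron had a median of -0.37 (88 genes) and those without one -0.29 (46 genes).

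**Figure D2:**
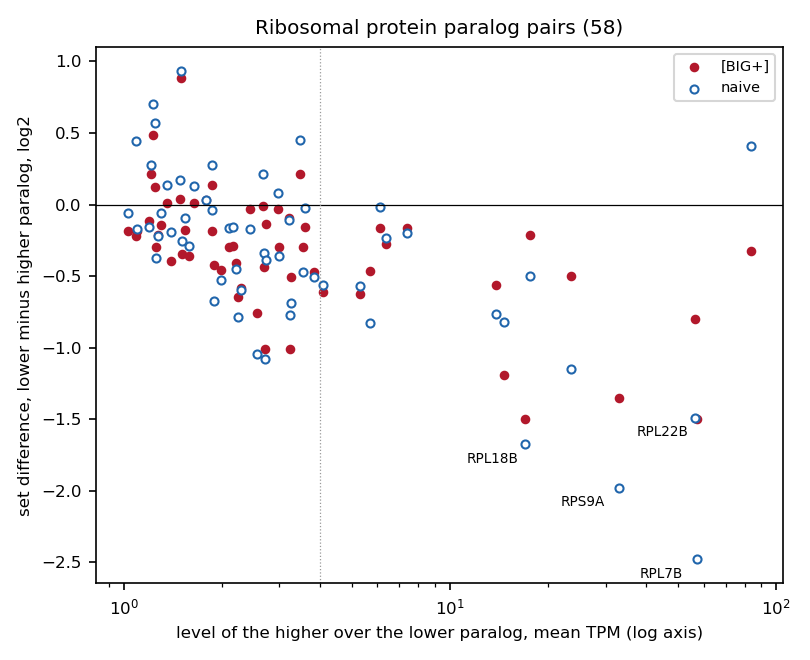
Ribosomal protein paralog pairs (58), with the ratio of mean TPM of the stronger to the weaker paralog on a log axis and the set difference of the weaker minus that of the stronger on the vertical axis, for [BIG+] (filled) and naive cells (open). The dotted line marks a level ratio of 4; to its right the points lie below 0 except for RPL15B in naive cells.

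Mitochondrial ribosomal proteins, encoded in the nucleus, were lower in both states for 52 of 74 genes and higher for 0, with a median of -0.42 (33 lower and 2 higher with median-of-ratios scaling, median -0.25). The share lower over all features was 34.5%, and 23.8% with that scaling. MRPL10 was at 11.9, 11.8, 11.1 and 12.1 TPM in cultures 3 and 4, against 16.8, 15.3, 17.5 and 14.8 TPM in cultures 1 and 2. The gap was small next to that of the assembly factors, yet the 4 libraries of each set did not overlap.

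Some regulators of ribosome production were among the lower transcripts. Of 46 genes of nutrient signalling, 18 were lower in both states and 3 were higher, a share lower near the 34.5% of all features. With median-of-ratios scaling 15 were lower and 7 higher, where 23.8% and 24.5% of all features were. TOD6 and DOT6, repressors that bind PAC, were at 2.02, 1.36, 1.79 and 2.48 TPM and at 6.14, 4.66, 7.14 and 7.50 TPM in cultures 3 and 4. In cultures 1 and 2 TOD6 was at 5.19, 4.50, 6.13 and 3.70 TPM and DOT6 at 13.2, 9.37, 21.2 and 11.9 TPM. STB3, which binds RRPE, was lower by a smaller amount (-0.55 ± 0.14), as were the activators SFP1 (-0.51 ± 0.12) and IFH1 (-0.76 ± 0.10).

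All 10 histone genes were lower in cultures 3 and 4 in both states, with a median of -0.91, at -0.81 in [BIG+] and -1.04 in naive cells (9 of 10, and -0.73, with median-of-ratios scaling). The share lower over all features was 34.5%, and 23.8% with that scaling. HTA1, which encodes histone H2A (YDR225W, chrIV:915530-915928), was at 257 and 279 TPM in [BIG+] cultures 3 and 4, against 763 and 553 TPM in [BIG+] cultures 1 and 2. The naive libraries had 242 and 261 TPM, against 893 and 897 TPM. The groups did not overlap, and the difference was -1.55 ± 0.13. HTB2, for histone H2B, was the least different member, at 671, 618, 557 and 573 TPM against 741, 693, 956 and 953 TPM (difference -0.45 ± 0.12).

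Of all features 34.5% were lower and 12.3% higher, or 23.8% and 24.5% with median-of-ratios scaling. Of 39 G1/S genes 17 were lower and 2 higher (9 and 7 with median-of-ratios scaling). With that scaling the share of G1/S genes lower was near that of all features. Of 26 G2/M genes 13 were lower and 0 higher (9 and 0), and of 25 genes of mitotic exit and daughter separation 12 and 0 (9 and 3). PIR1, a cell wall protein made at mitotic exit, was at 28.2, 27.9, 33.4 and 40.2 TPM in cultures 3 and 4, against 101.5, 76.9, 145 and 111 TPM in cultures 1 and 2 (difference -1.69). SVS1, a cell wall protein of the G1/S list, was at 13.6, 10.4, 13.9 and 18.3 TPM, against 33.0, 31.5, 40.2 and 39.1 TPM (difference -1.31 ± 0.12). The G1 cyclin CLN2 was at 2.88, 2.90, 3.32 and 3.90 TPM, against 6.19, 5.01, 8.49 and 6.08 TPM. CLB2, the main mitotic cyclin, overlapped in naive cells, at 4.43, 4.61, 6.01 and 6.96 TPM against 6.84, 6.36, 7.77 and 5.65 TPM. In bulk RNA, fewer cells in a cycle phase and less RNA per cell cannot be told apart.

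Of 19 pheromone response genes 10 were lower in both states and 3 higher, where 34.5% and 12.3% of all features were. AGA1, the anchor of the a-agglutinin, was at 24.3, 14.1, 17.4 and 19.6 TPM, against 51.7, 34.0, 63.0 and 49.7 TPM (difference -1.34). STE2, the receptor for alpha factor, was among the 3 higher, at 312, 297, 266 and 304 TPM against 288, 272, 253 and 232 TPM.

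**Figure D3:**
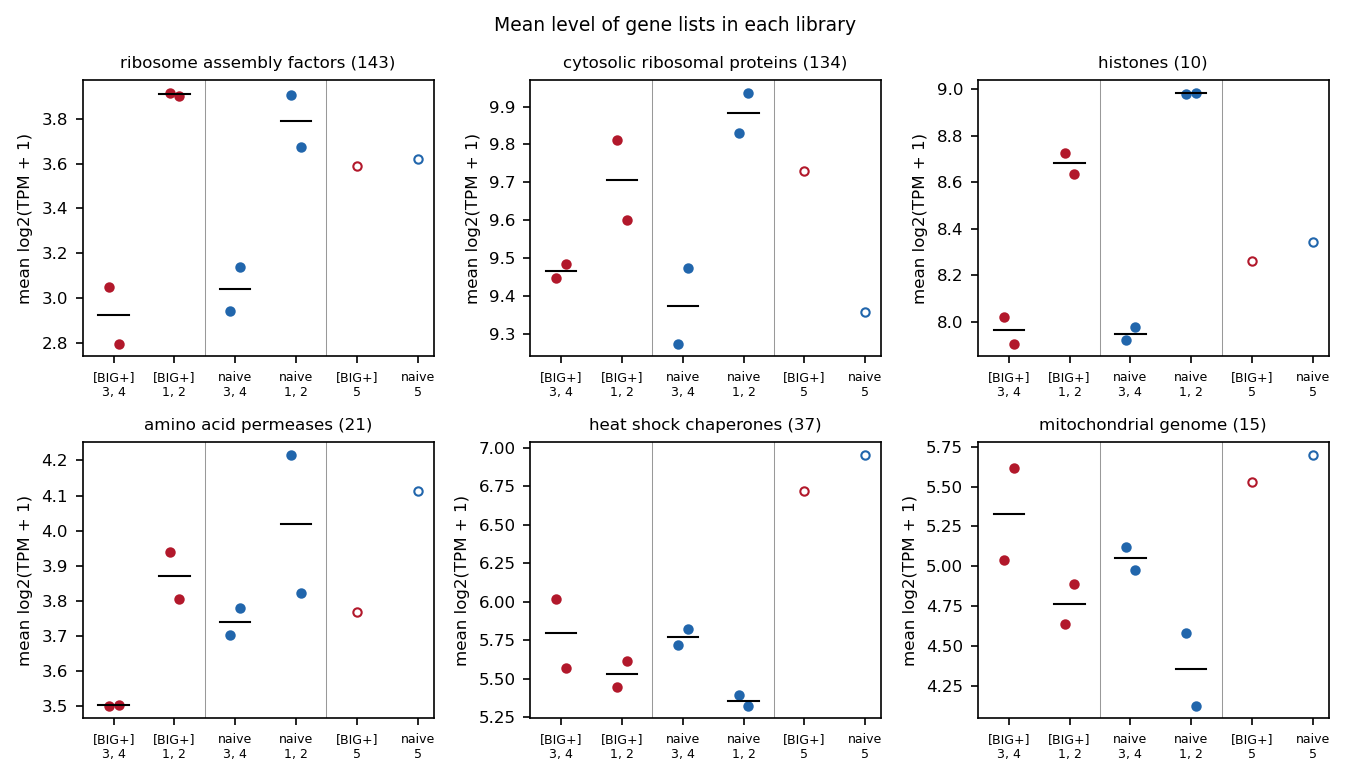
Mean log2(TPM + 1) of 6 gene lists in each of 10 libraries; filled points are the libraries of the sets, bars their means, and open points the libraries numbered 5, with [BIG+] in red and naive in blue. Assembly factors and histones sit lower in cultures 3 and 4 with no overlap, and chaperones sit higher in naive cells while [BIG+] culture 4 overlaps with [BIG+] cultures 1 and 2.

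Several genes of glucose and amino acid uptake were lower. Of 11 tested genes of glucose transport and its sensing, 5 were lower in both states and 0 higher, where 34.5% of all features were lower. All 11 differences were below 0, with a median of -0.73. That median was -1.16 without [BIG+] culture 4, and -0.05 with no filter on low values, which adds the other 11 genes of the list. The list mean was separated in naive but not in [BIG+] cells. HXT3, a low-affinity glucose transporter (YDR345C, chrIV:1162957-1164660), was at 491 and 457 TPM in [BIG+] cultures 3 and 4, against 1235 and 1103 TPM in [BIG+] cultures 1 and 2. In naive cells the level was 535 and 524 TPM, against 1312 and 990 TPM. All 4 libraries of cultures 3 and 4 were lower, with a difference of -1.20 ± 0.11. HXT2, a transporter made at low glucose, was at 16.8, 44.9, 29.0 and 23.2 TPM, against 106, 94.1, 144 and 108 TPM (difference -2.02 ± 0.23). MTH1, a repressor of hexose transporter genes, was also lower, by 1.26 on the log2 scale.

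HXT6 stood apart in 1 library. It was at 6.78 TPM in [BIG+] culture 3 and at 615 TPM in [BIG+] culture 4, against 31.9 and 21.4 TPM in [BIG+] cultures 1 and 2. Naive cells had 7.08 and 5.59 TPM in cultures 3 and 4, against 28.8 and 30.6 TPM in cultures 1 and 2. HXT6 and HXT7 are near-identical neighbours, and HXT7 was also highest in [BIG+] culture 4, at 629 TPM, with 361 TPM in [BIG+] culture 3 and 345 to 603 TPM in the other 6 libraries. The interaction of HXT6 did not pass (limma adjusted p = 0.906), and why the library stood apart was not tested.

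Of 21 amino acid permeases and their regulators, 12 were lower in both states and 3 higher, with a median of -0.35, where 34.5% of all features were lower and 12.3% higher. AGP1, a broad permease, was at 22.6, 25.6, 28.1 and 28.9 TPM, against 61.0, 58.1, 58.0 and 44.5 TPM (difference -1.04 ± 0.12). TAT1 and LYP1, for tyrosine and lysine among others, differed by -1.03 ± 0.12 and -1.02 ± 0.14. AGP2, a plasma membrane regulator of transport, was among the higher, at 20.5, 22.7, 27.8 and 28.6 TPM against 14.7, 13.9, 17.8 and 14.8 TPM. Of 25 purine and one-carbon genes 12 were lower and 4 higher (median -0.42), led by MTD1, a folate dehydrogenase, at 5.82, 7.49, 4.08 and 6.82 TPM against 20.1, 11.5, 24.7 and 21.6 TPM. Of 29 iron regulon genes 16 were lower and 4 higher (median -0.33).

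**Figure D4:**
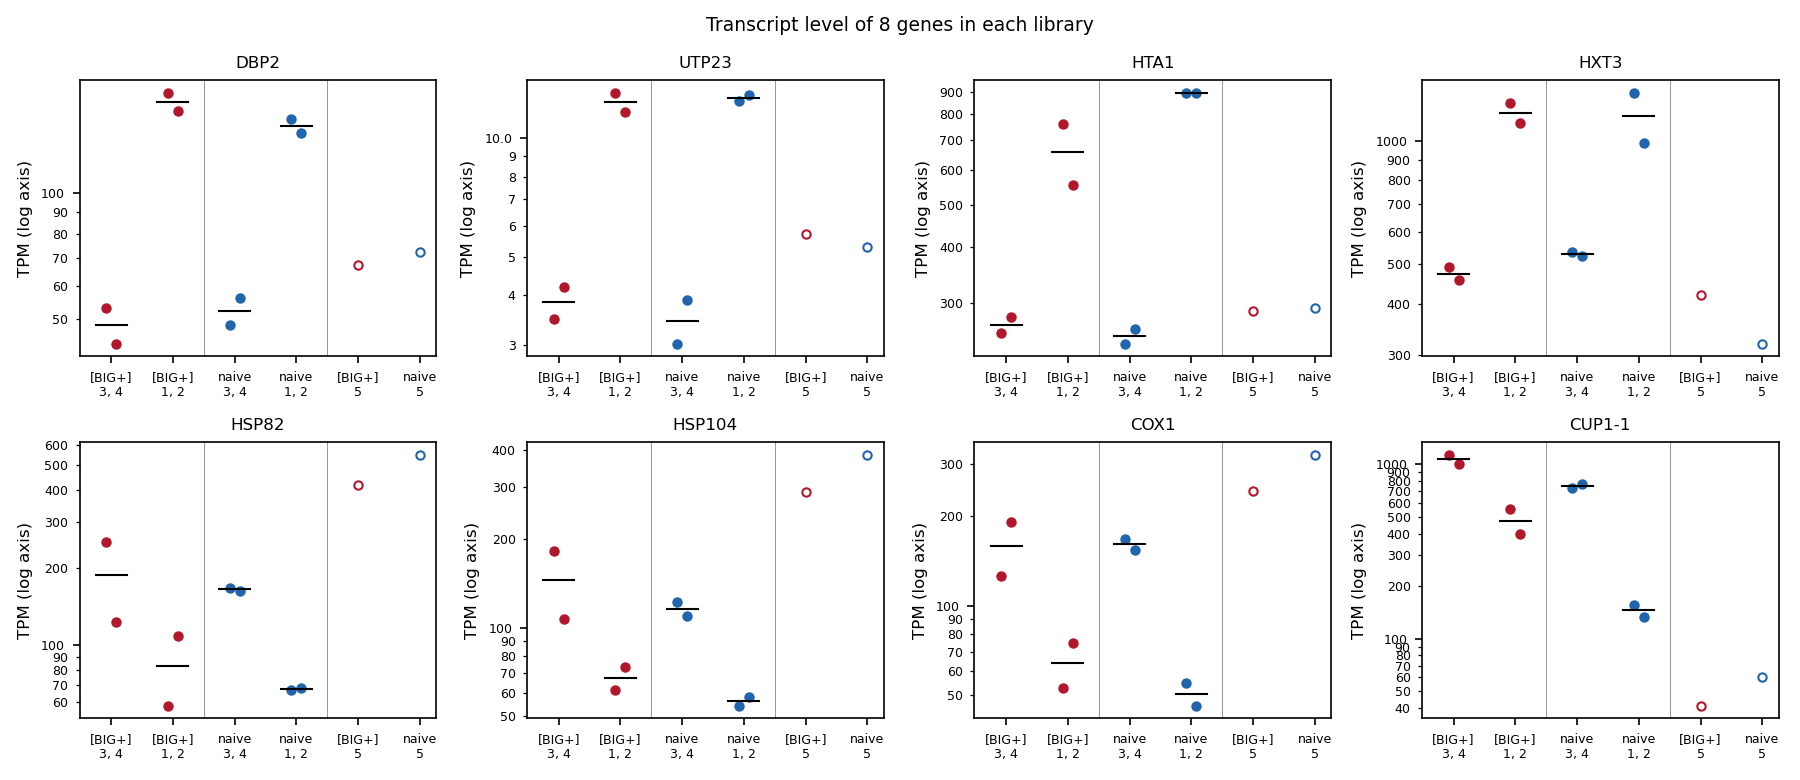
TPM of 8 genes in each library on a log axis; filled points are the libraries of the sets, bars their means, and open points the libraries numbered 5. DBP2, UTP23, HTA1 and HXT3 are lower in cultures 3 and 4 and HSP82, HSP104, COX1 and CUP1-1 higher, and CUP1-1 is lowest in the libraries numbered 5.

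Many heat shock chaperones were higher. Of 37 tested members, 12 were higher in cultures 3 and 4 in both states and 5 were lower, where 12.3% and 34.5% of all features were. Their median difference was 0.36, at 0.24 in [BIG+] and 0.54 in naive cells. With median-of-ratios scaling 19 were higher and 0 lower (median 0.53), where 24.5% and 23.8% of all features were. HSP82, the stress-inducible Hsp90 (YPL240C, chrXVI:96496-98625), was at 252 and 123 TPM in [BIG+] cultures 3 and 4, against 58.1 and 108 TPM in [BIG+] cultures 1 and 2. In naive cells it was at 167 and 162 TPM, against 67.0 and 68.2 TPM. Its groups did not overlap, but [BIG+] culture 4 lay close to [BIG+] culture 2 (difference 1.21 ± 0.21).

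SSA4, the stress-inducible Hsp70, was at 23.3, 7.94, 12.5 and 11.8 TPM, against 3.98, 5.26, 4.83 and 4.47 TPM (difference 1.31 ± 0.23). HSP104 (YLL026W, chrXII:88623-91349) was at 183, 107, 122 and 109.6 TPM, against 61.5, 73.8, 54.3 and 58.2 TPM (difference 1.03 ± 0.14). HSP78 was at 27.5, 18.4, 20.4 and 19.5 TPM, against 9.53, 11.7, 8.34 and 7.83 TPM. In each of these genes [BIG+] culture 3 was the highest and [BIG+] culture 4 the lowest of the 4 higher libraries. The ribosome-bound chaperones SSB1, SSB2 and SSZ1 were higher too, SSB2 at 0.75 ± 0.10, whereas ZUO1, the partner of SSZ1 in its complex, was lower, at -0.35. HSF1 itself was lower, at 3.54, 2.94, 3.07 and 3.26 TPM against 4.16, 3.77, 5.19 and 4.13 TPM. SSA1, a main cytosolic Hsp70, overlapped in [BIG+] cells, at 580.5, 383, 445 and 471 TPM against 274.7, 389, 347 and 267 TPM.

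UBI4, which encodes polyubiquitin, was at 159, 102, 119 and 107 TPM, against 48.9, 61.7, 46.8 and 51.6 TPM (difference 1.19 ± 0.14). KAR2, the Hsp70 of the endoplasmic reticulum, was at 157, 114, 142 and 156 TPM, against 65.9, 78.9, 75.0 and 57.7 TPM (difference 1.02 ± 0.13). Of 27 folding genes of the endoplasmic reticulum 11 were higher and 3 lower (19 and 0 with median-of-ratios scaling). Over all features 12.3% were higher and 34.5% lower as deposited, and 24.5% and 23.8% with that scaling. The balance of general stress genes depended on the scaling. Of 62 tested, 15 were higher and 16 lower in both states, with a median of -0.02. The share higher was 24.2% and the share lower 25.8%, where 12.3% and 34.5% of all features were. With median-of-ratios scaling 20 were higher and 7 lower, with a median of 0.16, where 24.5% and 23.8% of all features were. The highest of them, SSA4, UBI4, HSP78 and HSP104, include members of the chaperone list, while SPI1, a cell wall protein, was lower, at 9.93, 10.4, 21.01 and 19.1 TPM against 18.2, 18.3, 22.0 and 33.1 TPM. Of 36 proteasome genes 2 (5.56%) were higher and 8 (22.2%) lower, both below the shares of all features (8 and 4 with median-of-ratios scaling).

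Genes of the mitochondrial genome were higher in 9 of 15 cases and lower in 0, with a median of 0.65, where 12.3% of all features were higher. COX1, a subunit of cytochrome c oxidase (Q0045, chrMT:13818-26701), was at 126 and 192 TPM in [BIG+] cultures 3 and 4, against 52.8 and 75.0 TPM in [BIG+] cultures 1 and 2. The naive libraries had 168 and 154 TPM, against 54.7 and 45.9 TPM. The groups did not overlap, and the difference was 1.48 ± 0.15. RPM1, the RNA of mitochondrial RNase P, differed by as much (1.48 ± 0.14), whereas the 15S rRNA differed by 0.07 and OLI1, a subunit of ATP synthase, by 0.10. The mitochondrial share of TPM given above moved with these genes, and their levels per mitochondrial genome were not measured.

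Nuclear genes of respiration and glycolysis are to be read against 12.3% of all features higher and 34.5% lower. Of 25 genes of the TCA cycle and its pyruvate supply, 11 were higher and 4 lower (median 0.21, and 0.12 without naive culture 4). Of 46 nuclear respiratory chain and ATP synthase genes 11 (23.9%) were higher and 12 (26.1%) lower, with a median of -0.08 against -0.16 over all features. IDP1, the mitochondrial isocitrate dehydrogenase that uses NADP, was at 132, 134, 143 and 157 TPM, against 76.8, 88.1, 81.1 and 74.7 TPM (difference 0.81 ± 0.10). MPC1, a subunit of the mitochondrial pyruvate carrier, was lower in both states, at 22.2, 27.7, 23.1 and 22.4 TPM against 48.2, 41.2, 41.2 and 48.7 TPM. Of 25 genes of glycolysis and fermentation 8 were higher and 1, ALD6, lower (median 0.09), with PGI1, phosphoglucose isomerase, at 2850, 2600, 2673 and 2664 TPM against 2013, 2085, 1911 and 1755 TPM.

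**Figure D5:**
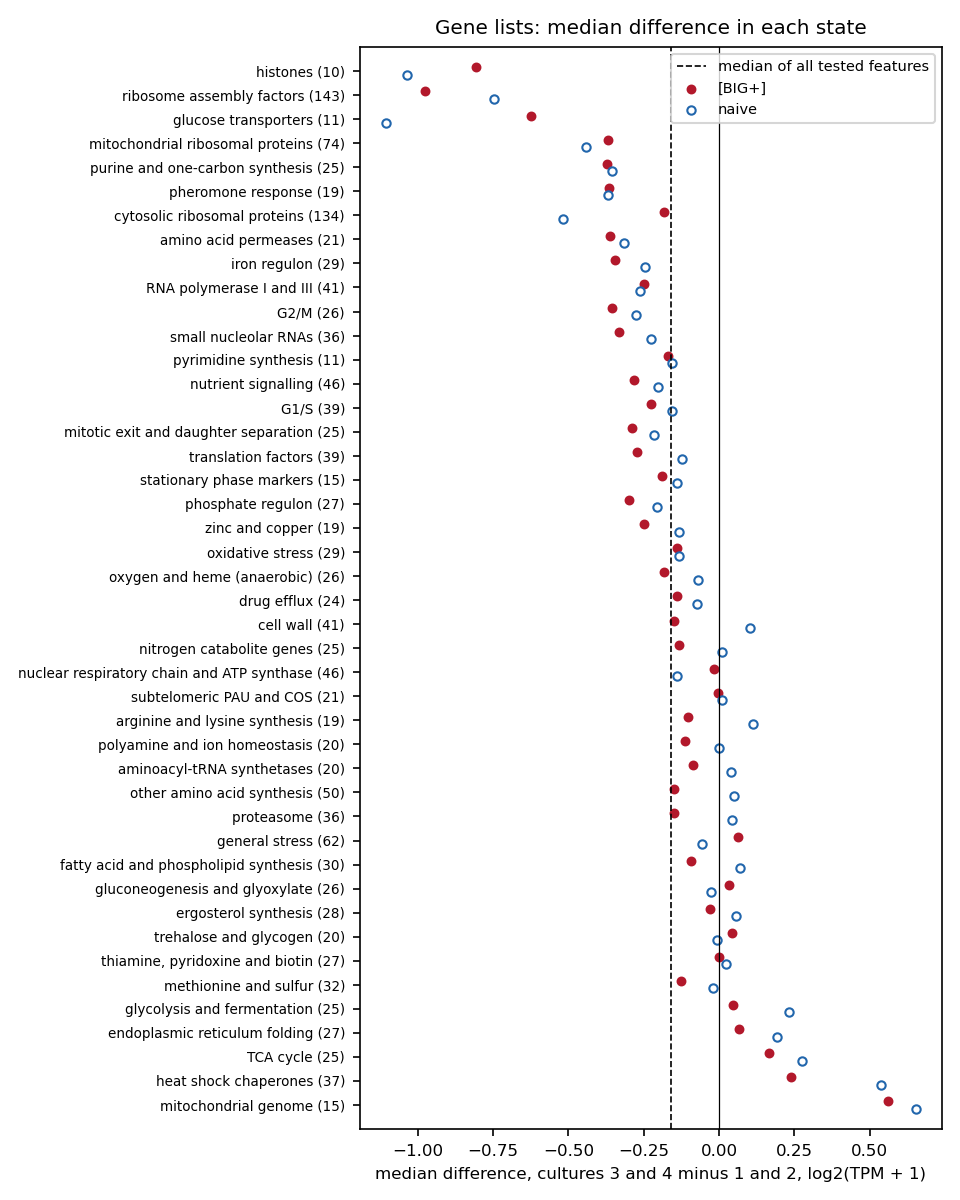
Median difference of 44 gene lists, cultures 3 and 4 minus cultures 1 and 2 on the log2(TPM + 1) scale, in [BIG+] (filled) and naive cells (open), with the number of tested members in parentheses. The dashed line is the median of all tested features at -0.16; assembly factors, histones and glucose transporters lie far to its left and chaperones and the mitochondrial genome to its right in both states.

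The balance of the biosynthesis lists also depended on the scaling, and the background shares are 12.3% higher and 34.5% lower as deposited and 24.5% and 23.8% with median-of-ratios scaling. Of 50 genes of other amino acid synthesis 6 were higher and 11 lower, but 18 and 7 with median-of-ratios scaling. Of 28 ergosterol genes 5 were higher and 3 lower (15 and 2 with that scaling), and of 20 aminoacyl-tRNA synthetases 2 and 2 (9 and 1). Of 32 methionine and sulfur genes 9 were higher and 10 lower (11 and 7), and of 30 genes of fatty acid and phospholipid synthesis 12 and 7 (14 and 6). Of 39 translation factors 4 were higher and 13 lower (11 and 9), with a median of -0.21, which was -0.10 without [BIG+] culture 4, -0.14 without naive culture 1 and -0.31 without naive culture 2. Of 36 small nucleolar RNAs, which guide rRNA modification, 1 was higher and 4 (11.1%) were lower, but 5 and 0 with median-of-ratios scaling.

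Single genes with the largest differences lay partly outside these groups. CUP1-1, a copper metallothionein (YHR053C, chrVIII:212535-212720), was at 1131 and 1000 TPM in [BIG+] cultures 3 and 4, against 551 and 396 TPM in [BIG+] cultures 1 and 2. Naive cells had 730 and 768 TPM, against 156 and 134 TPM. The groups did not overlap in either state (difference 1.77 ± 0.20). CUP1-2 had identical values, as had RUF5-1 and RUF5-2, the noncoding RNAs of the same repeat, so these are 1 measurement each. Among features with a mean of at least 10 TPM the most negative difference was that of RGI1, a protein linked to respiratory growth (YER067W, chrV:292066-292551), at 12.8, 31.9, 10.7 and 10.1 TPM against 97.1, 58.7, 57.1 and 79.6 TPM (difference -2.22 ± 0.25). BSC1, EEB1 and TIP1 had differences of -1.995, -1.59 and -1.53. EEB1 makes ethyl esters, and TIP1 is a cell wall mannoprotein.

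Both states shared the direction of most differences. The sign was the same in 81.9% of features, and the differences in [BIG+] and in naive cells correlated across 5663 features with r = 0.80 and a rank correlation of 0.80. This is a description across genes, which are not replicates, and the sets were seen in these libraries. Of 44 lists, 30 had medians of 1 sign in both states, 25 of them lower and 5 higher. The mean level was separated lower in both states in 17 lists, higher in 3 and in opposite directions in 0. Of the variation among the 8 libraries, summed over features, 59.9% lay between the sets, 10.7% between the states, 6.02% in the interaction of set and state and 23.4% between libraries of the same set and state.

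Whether a difference itself depended on prion state was tested with limma, as the interaction of set and state over all 5663 features. The sets in that model were chosen from these same values, so its p values can be too small. RUF5-1 and RUF5-2 passed (2 features, 0.0353%), and 310 had an unadjusted p under 0.05. RUF5-1 was at 1093 and 1241 TPM in [BIG+] cultures 3 and 4, against 676 and 522 TPM in [BIG+] cultures 1 and 2. In naive cells the level was 953 and 1014 TPM, against 163 and 182 TPM, so that the gap was narrower in [BIG+] cells by 1.54 on the log2 scale (limma adjusted p = 0.014, 0.000503 to 0.496 over 17 alternatives). With the replicate number as a block 9 features passed (0.159%), adding CUP1-1, CUP1-2, snR34, snR35, YGR121W-A, YGR240C-A and NCE101. The count was 0 without naive culture 1, 0 without naive culture 4, 1 without naive culture 2, 6 without [BIG+] culture 2, 9 without [BIG+] culture 1 and 17 without [BIG+] culture 3. It was also 0 with median-of-ratios scaling, so the call was lost under that setting. NSR1, with its wider gap in [BIG+] cells, did not pass (limma adjusted p = 0.767). In all 44 lists 0 members passed. In simulated data the interaction test found 2% of 50 features given a difference of 0.5 on the log2 scale, 52% at 1.0 and 100% at 2.0. Smaller differences between the states would thus mostly be missed, and few calls do not show that the states agree.

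The median interaction of the assembly factors was -0.22 and that of the cytosolic ribosomal proteins 0.32, against -0.08 over all features. Assembly factors thus had the wider gap in [BIG+] cells and ribosomal proteins in naive cells. Single libraries weigh in both contrasts. The mean log2(TPM + 1) of assembly factors was 3.91 in naive culture 1, near [BIG+] cultures 1 and 2 (3.92 and 3.90), but 3.675 in naive culture 2. That of ribosomal proteins was 9.81 in [BIG+] culture 1, near naive culture 1 (9.83), but 9.60 in [BIG+] culture 2. No member of either list passed, and the difference between the lists was not tested.

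Prion state itself, with set in the model, gave 51 features past the threshold (0.901%), 17 higher and 34 lower in [BIG+] cells (limma, adjusted p under 0.05). Without the set term 0 passed, with 197 at an unadjusted p under 0.05, and with the replicate block 35 passed, 9 higher and 26 lower. The 51 calls thus rest on having that term in the model. The sets were chosen from these same values, so the spread left after the term, and with it the p values for state, can be too small. Among the assembly factors, cytosolic ribosomal proteins, histones and chaperones 0 members passed for state. The median difference of [BIG+] minus naive was -0.01 for the assembly factors, where it was -0.86 between the sets. CUP1-1 was higher in [BIG+] cells by 1.10 (limma adjusted p = 0.0172, 0.00265 to 0.999 over 18 alternatives), a call that was lost with the replicate block (limma adjusted p = 0.0509). RUF5-1 did not pass for state (difference 1.01, limma adjusted p = 0.0729).

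The libraries numbered 5, which did not define the sets, did not fall with either set throughout. The mean log2(TPM + 1) of assembly factors was 3.59 in [BIG+] culture 5 and 3.62 in naive culture 5, between cultures 3 and 4 (2.80 to 3.14) and cultures 1 and 2 (3.67 to 3.92). Histones were also between, at 8.26 and 8.34. Chaperones were at 6.72 and 6.96, above each of the other 8 libraries (5.32 to 6.02), with HSP82 at 420.4 TPM in [BIG+] and 549 TPM in naive culture 5. HXT3 was at 420.0 and 319 TPM, below both sets, and CUP1-1 at 41.2 and 60.0 TPM, also below both. The libraries numbered 5 thus combined chaperone levels beyond those of cultures 3 and 4 with CUP1-1 levels below those of cultures 1 and 2. Each state has 1 such library, and in [BIG+] culture 5 rRNA took 17.4% of TPM, against 0.609 to 0.951% in the 8 libraries of the sets. The mRNA share was 53.0 to 53.6% in the libraries numbered 5. Their median over tested features was 8.38 to 9.68 TPM, against 5.54 to 6.69 TPM in cultures 3 and 4 and 6.64 to 7.75 TPM in cultures 1 and 2. Levels given here are as deposited, and a place between the sets relative to other features was not tested.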

How the data were processed

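Per the labels' protocols, RNA of 10 cultures was rRNA-depleted and sequenced; 8 libraries form the sets. The authors deposited TPM values in 1 table. The submitters' processing notes name Bowtie2, HTSeq and build R64; tool versions, annotation release and strand setting are not stated there or in the labels. Levels of near-identical, overlapping and antisense genes are uncertain for that reason; 29 tested features share all values with another. Library totals were 999963 to 999982 TPM, and depth is unknown, so no counting interval is given.

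The table held 7032 features, and 4 emptied lines were left out. Values were analysed as log2(TPM + 1) for 5663 features with a mean of at least 1 TPM over the 8 libraries. At that filter, MLO127 lay just inside with a mean of 1.00 TPM and SPO13 just outside with 0.998 TPM. Fits were made with limma (3.58.1, under R 4.3.3, eBayes with trend, two-sided tests). Set differences with their SE and the state test came from a model with state and set as terms. The interaction came from a model with a mean for each set and state. P values were adjusted by Benjamini-Hochberg, and 0.05 was the threshold. No p is given for the sets. Replicates are separate colonies, per the labels' protocols. Members and lists were chosen with earlier results of these data known. Named genes were up to 15 each way with the largest difference among separated features with a mean of at least 10 TPM, up to 3 separated members and the most abundant member of each of 44 lists, features past a threshold and markers; the choice of other named members followed their values. The snoRNA list was taken from the type in the table, and the heat shock element was added, after the data were seen.

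The states share replicate numbers, which the labels do not tie to a day or batch. Between libraries of equal number, deviations from the state means had correlations of 0.77, 0.60, 0.58, 0.38 and 0.67 for numbers 1 to 5. As each exceeded 0.1, the fit with the replicate number as a block is given beside results it changes; the main fit has no block. Over the 8 libraries of the sets unequal numbers also correlated, [BIG+] 4 at 0.58 with naive 3 and at 0.48 with naive 4, so pairing by number and the sets cannot be told apart. Promoter windows were read from the R64 reference, the build of the files; 5914 of 6596 mRNAs matched a locus there. Median-of-ratios, quantile and nuclear mRNA scaling, other filters and pseudocounts, and leaving out each library were alternatives. The fit was tested on simulated data. Tables and figures were made in Python 3.11.15 (pandas 2.3.3, matplotlib 3.10.9).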

Additional observations from a re-analysis of the deposited data

Results flagged for a closer look

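Some libraries stood apart from the others of their state on a list mean or a class share, by a gap to the nearest library that was large for the range of the 4 or 5 libraries. Of 164 groups examined 7 did so. The usual rate of about 1 in 20 holds for a uniform group. These groups held libraries of both sets, and some were genes named for their gap between the sets, so 7 cannot be read against that rate. Mean log2(TPM + 1) of glycolysis and fermentation was 8.72 in [BIG+] culture 4 and 8.78 to 8.79 in the other [BIG+] libraries of the sets, and that of ergosterol synthesis was 5.31 there and 5.45 to 5.47 in the others. Mean log2(TPM + 1) of zinc and copper genes was 4.53 in naive culture 2 and 4.70 to 4.72 in the other naive libraries of the sets. In [BIG+] culture 5, snoRNAs took 14.5% of TPM, rRNA 17.4% and snRNAs 1.97%, where the other 4 [BIG+] libraries had 25.9 to 29.9%, 0.729 to 0.951% and 3.67 to 3.86%. In naive culture 5 rRNA took 1.69%, where the other 4 naive libraries had 0.609 to 0.918%. The interaction of set and state at RUF5-1 and RUF5-2, identical in value, was -1.54 by limma, with a gap between the sets that was narrower in [BIG+] than in naive cells.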

How the results depend on the processing

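No tested call changed direction under the alternatives run. A count has no direction, but the balance of 696 higher against 1954 lower features turned. It was 1387 against 1348 with median-of-ratios scaling and 1496 against 1207 with quantile normalization. List medians near 0 changed sign too. Of 44 lists, 21 had a median of the other sign under at least 1 alternative, 12 of them with median-of-ratios scaling and 14 with quantile normalization. None of the 21 was beyond 0.191 in size as deposited. Of 181 named set differences 13 changed sign, none beyond 0.182. The number of features higher in cultures 3 and 4 in both states, 696, was 1387 with median-of-ratios scaling, 1496 with quantile normalization and 450 with a mean of at least 10 TPM. The number lower, 1954, was 1207 with quantile normalization and 700 with a mean of at least 10 TPM, where fewer features are tested. Leaving out 1 library gave 723 to 928 higher and 2027 to 2553 lower, since fewer libraries make separation easier. The interaction count of 2 (limma) was 0 with no filter on low values, 7 over features averaging 10 TPM or more, 0 with median-of-ratios scaling, 1 with quantile normalization, 9 with the replicate block and 0 to 17 with 1 library left out, where a lone library is assumed to vary like the others. The count for [BIG+] minus naive, 51, was 26 with no filter on low values, 0 with no set term and 35 to 56 with 1 library left out. The cause of these changes was not tested. In the replicate block fit CUP1-1 and CUP1-2 also passed for the interaction, and 35 features passed for state. TPM hides depth, so the counting error of low genes is unknown. Each set has 2 libraries a state, so separation within a state rests on 4 values.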
